A study of Glycine max with 30 samples.

Results

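Accessible chromatin regions (ACRs) listed only in subjective night were taken from the 6 merged ACR lists of a free-running soybean time course. The 6 lists were pooled, and regions that overlapped or touched were joined into 35922 union regions. A region was called night-only when it overlapped 2 or 3 of the lists of ZT12, ZT16 and ZT20 and none of the lists of ZT0, ZT4 and ZT8. This gave 1702 regions, which together covered 717 kb. The regions were chosen by these lists, and the lists were made from the same reads as the peaks of the single libraries, so their presence in night libraries and scarcity in day libraries are described here and not tested.

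The study measured accessibility by ATAC-seq, which sequences the fragments that a transposase releases from DNA not packed in nucleosomes, in first trifoliate leaves of wild-type Ws82. Plants grew for about 18 days in short days of 8 h light at 24 °C and 16 h dark at 22 °C, were then moved to constant light, and were sampled after a day there every 4 h at ZT0, ZT4, ZT8, ZT12, ZT16 and ZT20. The labels and the paper give different temperatures for constant light and different days for the first sampling, so neither is given here. All 6 groups were thus the same genotype in constant light, and by the labels they differed in the time of sampling. Each had 3 biological replicate libraries, lettered L, M and R, which gave 9 night and 9 day libraries, while 12 further samples were not analysed here. Peak lists hold no expression values, so the leaf label could not be checked against marker genes, and fewer cells with an open region cannot be told apart from less opening per cell.

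Subjective night is the part of the cycle in which plants in constant light would have met darkness in their former light regime. With 8 h of light a day, ZT8 fell at the former start of darkness, and it is counted here with subjective day as the rule has it. In Arabidopsis, the morning MYB proteins CCA1 and LHY repress genes of the evening, and the evening complex of ELF3, ELF4 and LUX acts as a repressor in the night. Accessible DNA marks places where nucleosomes are sparse, which include promoters and enhancers bound by such transcription factors. The regions below are given by their positions on the Wm82.a2.v1 assembly. No annotation or sequence of that build was used here, so the genes beside them are not named.

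The lists of ZT12 and ZT16 together, without ZT20, held the largest group, with 813 regions or 47.8% of the night-only regions. Another 307 (18.0%) were listed at ZT16 and ZT20, 304 (17.9%) at ZT12 and ZT20, and 278 (16.3%) at all 3 night times. Night-only regions made up 6.68% of the union regions listed at ZT12, 7.17% of those at ZT16 and 5.81% of those at ZT20. By the mirrored rule 1010 regions were day-only, of which 571 were listed at ZT4 and ZT8 but not ZT0. Night-only regions were thus 1.69 times as many as day-only regions, and this ratio depended on single libraries. When a listing was counted only if a library other than ZT12 M had a peak in it, 1163 night-only and 1407 day-only regions remained, a ratio of 0.827 (a count added after seeing the data). Without ZT16 M, 1225 night-only and 1247 day-only regions remained, a ratio of 0.982. Leaving out any of the other 16 libraries gave ratios from 1.18 to 2.59.

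The night-only regions had peaks in more of the night libraries than of the day libraries, as the choice of members requires. Of the 1702 regions, 347, 1065 and 551 had a peak in libraries L, M and R of ZT12. At ZT16 the numbers in libraries L, M and R were 655, 958 and 361, and at ZT20 they were 628, 298 and 269. The libraries of 1 time differed widely, and ZT12 M and ZT16 M stood highest. In the day libraries L, M and R the numbers were 45, 97 and 63 at ZT0, 128, 70 and 96 at ZT4, and 120, 153 and 50 at ZT8. All 9 day libraries lay below all 9 night libraries. A night library had a peak in 33.5% of the regions on average and a day library in 5.37%, where over all union regions the averages were 35.6% and 32.3%. Night libraries thus called night-only regions about as often as any union region, and the contrast lay in the day libraries, where the rule fixes it.

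**Figure D1:**
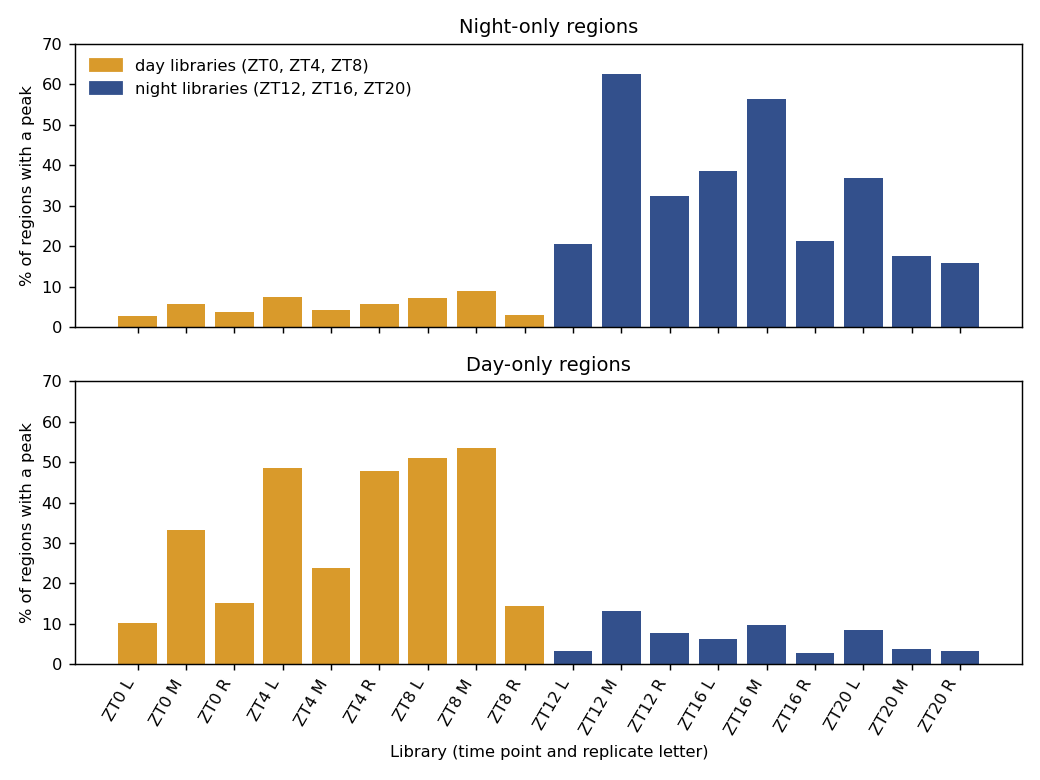
Share of night-only regions (upper panel, 1702 regions) and of day-only regions (lower panel, 1010 regions) with a peak in each of the 18 libraries, 1 bar per library, as a percentage. In the upper panel the night libraries run from 15.8% to 62.6% and the day libraries from 2.64% to 8.99%, and in both panels the bars of 1 time point differ widely.

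ZT12 M and ZT16 M, with peaks in the most night-only regions, also had the longest lists of the series, of 21804 and 19979 peaks. ZT20 R, with the fewest of the night libraries, had the shortest night list, of 9518 peaks. Per 1000 peaks of its own list, a night library had between 28.3 and 48.8 night-only regions (median 34.0), and a day library had between 5.87 and 9.03 (median 6.59). Night libraries had peaks in between 2.77% and 13.3% of the day-only regions, with ZT12 M again the highest.

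A typical night-only region, like a typical union region, was called in few libraries. The median was 3 of 9 night libraries and 0 of 9 day libraries. It was 2 and 2 over all union regions, and 0 and 3 for day-only regions. A peak was present in 2 night libraries for 742 regions, in 3 for 502, in 4 for 275 and in 5 or more for 183, and in all 9 for 4 regions. Of all 35922 union regions, 10429 had a peak in 5 or more night libraries and 3505 in all 9. Some regions had peaks in day libraries although no day list held them. A peak in at least 1 day library was found in 553 of the 1702 regions (32.5%), against 79.4% of all union regions, a difference that the choice of members fixes in direction. Of the 553, 389 had a peak in 1 day library, 108 in 2 and 56 in 3 or more. Day peaks were found at ZT0 in 168 regions (9.87%), at ZT4 in 242 (14.2%) and at ZT8 in 270 (15.9%). Of all union regions unlisted at ZT0, ZT4 and ZT8, 8.08%, 12.1% and 12.9% had a peak there, so the night-only regions were near the general share.

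The remaining 1149 night-only regions (67.5%) had a peak in no day library, against 20.6% of union regions with a peak in night libraries alone. The 20.6% is taken over all union regions, and every region in a day list had a day peak. Of the 7372 regions in 1 night list and 0 day lists, 84.6% had no day peak. A peak in 5 or more night libraries and 0 day libraries was present in 79 regions (4.64%), where 0.242% of all union regions met that condition. These 79 were among 87 such union regions. No region in a day list could be among the 87, since every listing overlapped a library peak, so the rule largely fixes this count. All 3 libraries of a night time point and 0 day libraries had a peak in 73 regions (4.29%), where 0.323% of union regions met that condition. The rule fixes the direction of this difference too. At the other end, 54 night-only regions had a peak in at least as many day as night libraries, against 19301 of the 35922 union regions. The direction of that difference again follows from the rule.

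**Figure D2:**
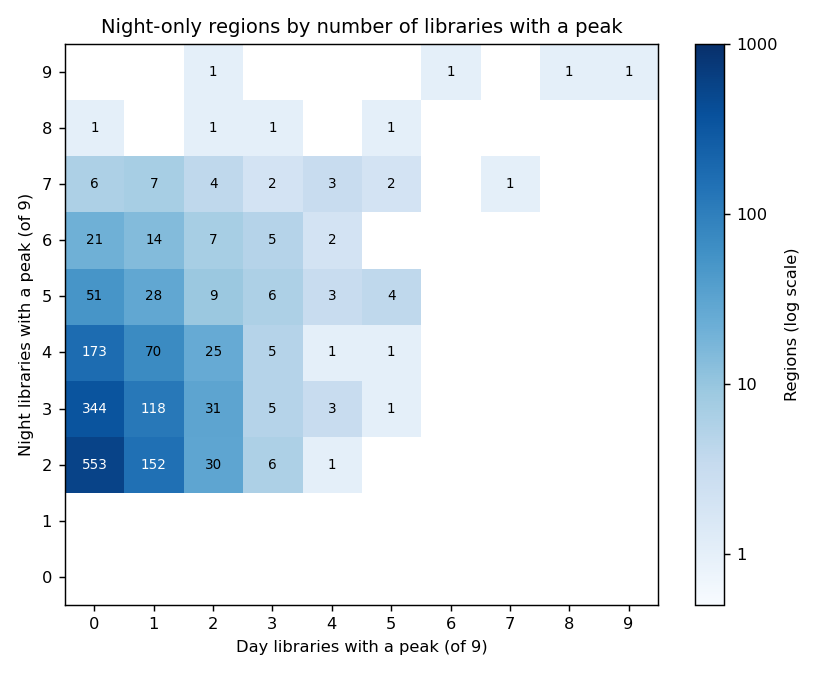
Number of night-only regions by the number of night libraries with a peak (vertical axis, of 9) and the number of day libraries with a peak (horizontal axis, of 9), with colour on a log scale and the count in each cell. Most regions lie at the lower left, 553 of them with 2 night libraries and 0 day libraries, and a thin tail reaches to 9 night and 9 day libraries.

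A listing at a time point can rest on 1, 2 or 3 of its libraries. Of the 3682 night listings of the night-only regions, 72.3% overlapped a peak of 1 of the 3 libraries, 23.3% of 2 and 4.40% of all 3. For day-only regions these shares were 70.3%, 24.5% and 5.19%, whereas among all 106305 listings 41.7% had 1 library and 31.8% had all 3. At ZT12, 648 of 1395 listings (46.5%) had a peak in library M only. At ZT16, 563 of 1398 (40.3%) had a peak in M only, and at ZT20, 418 of 889 (47.0%) had a peak in L only. Each of these was the library with the longest list of its time point.

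When a time point was instead taken as listed if 2 of its 3 libraries had a peak in the region, 986 regions were night-only and 642 day-only. The 199 regions shared with the night-only regions of the merged lists were 20.2% of the 986 and 11.7% of the 1702. With the same number of peaks from each library (the 7668 of highest −log10 q), 436 regions were night-only and 402 day-only, a ratio of 1.08, and 11 were shared, 2.52% of the 436 and 0.646% of the 1702. Both counts were chosen after seeing the data.

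Peaks in the night-only regions were low, as were those in the day-only regions. The number of fragments at each summit was recovered from the deposited fold and p values, for peaks with −log10 p under 50. The strongest peaks are thus left out, so values at strongly open regions are understated. In night libraries the median was 8 fragments (quartiles 6 and 10, range 4 to 49), and in day libraries it was 6 (quartiles 5 and 8, highest 35). At regions listed at all 6 times, the 46461 night peaks with recovered fragments had a median of 14 (quartiles 10 and 20, highest recovered 198). The weakest peaks that a library list held had 4 or 5 fragments, so many of the night-only peaks stood a few fragments above the lowest height that could be called. Peaks were also ranked within their own list by −log10 q, from 0% for the highest to 100% for the weakest. The median rank of all peaks in night-only regions lay between 62.3% and 77.4% in the 9 night libraries. That of regions listed at all 6 times, by the best peak of each region, lay between 18.3% and 31.4%. Day-only regions, by the best peak of each region, had median ranks between 65.1% and 80.1% in the 9 day libraries. Their median fragments there were 6 to 8. Only 14.5% to 31.6% of a night library's peaks in night-only regions were in the upper 50% of its list. At this depth a missing day peak says that no peak was called, not that the region was closed.

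Background coverage, which longer or more fragments raise alike, was higher in night than in day libraries. The background coverage of a library, the most frequent local background that the peak caller used, was 0.564 ± 0.0930 fragments per base in night libraries and 0.462 ± 0.0507 in day libraries (SD, n = 9 each). The night values ran from 0.485 to 0.784 and the day values reached 0.542, so the groups overlapped. The difference of 0.102 passed a two-sided exact permutation test (p = 0.00325, adjusted p = 0.00975 over 3 measures, Benjamini-Hochberg). Over the 3 time-point means on each side, the exact permutation test gave p = 0.1, the smallest that design allows. The number of peaks was 14381 ± 4463 in night and 12712 ± 3634 in day libraries (SD, n = 9 each, exact permutation adjusted p = 0.393). The length covered by peaks was 4.41 ± 1.37 Mb and 3.81 ± 1.18 Mb (SD, n = 9 each, exact permutation adjusted p = 0.393). The part of background coverage and list length in the choice of night-only regions was not tested. When each list was shortened to 7668 peaks, 95 to 164 of the regions had a peak in a night library and 10 to 45 in a day library, an order that the choice of members fixes, and 807 of the 1702 regions had no peak in any library.

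The 3 night times were also compared with each other. The rule treats them alike, but the lists of ZT12, ZT16 and ZT20 held 1395, 1398 and 889 of the night-only regions. The peaks compared thus came from partly different regions, chosen by the lists of these same times. The tests of width, rank and fragments cannot separate a difference between the times from that choice. Median width of the night-only peaks was 246 ± 4.09 bp in the libraries of ZT12, 217 ± 6.51 bp at ZT16 and 226 ± 7.02 bp at ZT20 (SD, n = 3 each). All 3 libraries of ZT12 lay above the other 6, from 241 to 249 bp against 210 to 233 bp. The exact permutation test of the F statistic gave p = 0.00714 (adjusted p = 0.0214 over 3 measures). The width of all peaks of these libraries was 266 ± 11.0, 256 ± 11.6 and 258 ± 7.37 bp (SD, n = 3 each). After it was subtracted from the width of the night-only peaks, a step chosen after seeing the data, the exact permutation p was 0.0714. With lists of equal length the means were 259, 225 and 230 bp, a ZT12 excess as large as before that no longer passed the test (exact permutation p = 0.1). For regions in all 3 night lists they were 247, 229 and 223 bp (exact permutation p = 0.157).

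Rank and height gave no difference past the threshold among the night times. Median rank was 66.4% ± 4.59 at ZT12, 72.0% ± 4.65 at ZT16 and 73.1% ± 4.14 at ZT20 (SD, n = 3 each, exact permutation adjusted p = 0.232). Median fragments at the summit were 8 in every library of ZT12, 7.33 ± 0.577 at ZT16 and 7 in every library of ZT20 (SD, n = 3 each, exact permutation adjusted p = 0.214). The unadjusted p of 0.143 for fragments fell to 0.0357 without ZT16 L.

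**Figure D3:**
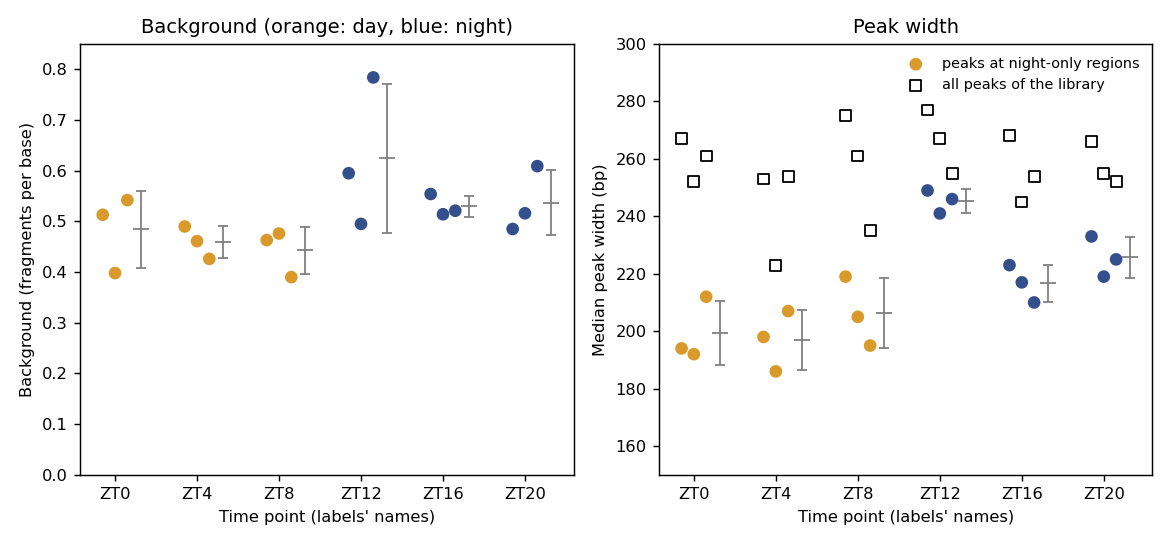
Left, background coverage in fragments per base of each library by time point. Right, median width in bp of the peaks in night-only regions (filled points) and of all peaks (open squares) of each library, on an axis that starts at 150 bp. Orange points are day and blue points night libraries, L, M and R from left to right, and grey bars are the mean ± SD of 3 libraries for the filled points. Night-only peaks at ZT12 (241 to 249 bp) lie above those at ZT16 and ZT20, and the background of ZT12 R (0.784) lies above all others.

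In each of the 4 list patterns some regions had peaks at times that did not list them. Regions of ZT12 and ZT16 had a peak in at least 1 of 3 ZT20 libraries in 10.5% of cases (85 regions), near the 10.3% of all union regions unlisted at ZT20. Regions of ZT16 and ZT20 had one at ZT12 in 17.9% (55), near the 16.2% of all union regions unlisted at ZT12. Regions of ZT12 and ZT20 skip the time between their lists. Of these 304 regions, 74 (24.3%) had a peak in a ZT16 library, and 8 had one in all 3, though the ZT16 list did not hold them. Over all 16433 union regions unlisted at ZT16, 13.4% had a ZT16 peak, and 313 had one in all 3 libraries. The share with no day peak was 70.8% for ZT12 and ZT16, 74.3% for ZT16 and ZT20, 63.8% for ZT12 and ZT20, and 54.3% for regions listed at all 3 night times. Regions in all 3 night lists, which were joined from more listings, had a median width of 456 bp, and those of ZT12 and ZT16, ZT16 and ZT20, and ZT12 and ZT20 had medians of 366, 357 and 410 bp.

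**Figure D4:**
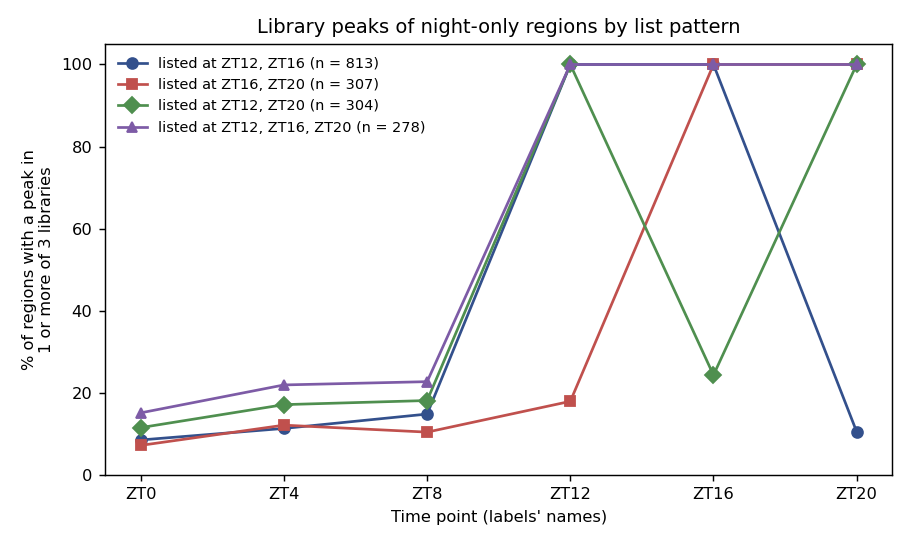
Percentage of the night-only regions of each list pattern that had a peak in at least 1 of the 3 libraries of a time point, with 1 line per pattern and the labels' time points on the horizontal axis. All lines reach 100% where their regions were listed, since every listing overlapped a library peak, and between 7.17% and 24.3% of regions had a peak at times that did not list them.

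In each pattern, 5 regions were picked by the number of night minus day libraries with a peak and numbered N1 to N20. They are the most night-restricted regions of their own pattern by that count, not of all night-only regions, and they are not typical of the rest. N1, at chr3:30586470-30587030 (561 bp), was listed at ZT12 and ZT16. It had 6, 6 and 7 fragments at the summit in libraries L, M and R of ZT12, 8, 5 and 8 at ZT16 and 4 in L of ZT20, with no peak in ZT20 M, ZT20 R or any day library. All 7 of its peaks were low, with a median rank of 78.5%.

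N2, at chr15:1904235-1904647 (413 bp), had the same lists and higher peaks. It had 9, 15 and 14 fragments in libraries L, M and R of ZT12, 12, 14 and 11 at ZT16, 6 in ZT20 L and 9 in ZT8 M. By fold and rank the day peak (6.78, 40.4%) stood above the peaks of ZT12 L (5.45, 61.1%) and ZT20 L (4.72, 72.6%) and below the other 5 night peaks. The 8 summits lay within 88 bp. N4, at chr4:3721259-3721750, had 6, 10 and 15 fragments at ZT12 and 11, 8 and 7 at ZT16, and no peak at any other time. It lay 927 bp from a region listed at all 6 times. N3 (chr2:27348492-27349444) and N5 (chr2:6564613-6565098) each had peaks in 6 night libraries and 0 day libraries.

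N6, at chr13:24896730-24897309 (580 bp), was the first region listed at ZT16 and ZT20. It had 9 and 14 fragments in L and M of ZT16 and 14, 17 and 10 in L, M and R of ZT20, and no peak at ZT12 or in a day library. Its median rank of 27.7% was the highest place of the 20 regions. N7 (chr5:6978740-6979110) to N10 also had peaks in 5 night and 0 day libraries each. Among them N10, at chr3:7804898-7805717 (820 bp), had 14, 15 and 12 fragments at ZT16 and 14 and 12 in L and M of ZT20, but folds of only 3.53 to 4.54, so many fragments stood over a high local background there. N8 (chr20:40424170-40424776) and N9 (chr9:6027111-6027403) had their highest peaks, 15 and 16 fragments, in ZT16 L.

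N11 to N15 were listed at ZT12 and ZT20, and all 5 had peaks in 2 or 3 libraries of ZT16, whose list left them out. N11, at chr4:2566100-2566949 (850 bp), had 14 and 9 fragments in M and R of ZT12, 12, 9 and 7 at ZT16 and 12 and 9 in L and M of ZT20, and no day peak. N12, at chr17:39122794-39123594 (801 bp), had a peak in all 9 night libraries. Its fragments were 7, 13 and 9 at ZT12, 7, 6 and 10 at ZT16 and 5, 13 and 8 at ZT20, beside 5 in ZT0 R and 6 in ZT4 L. The day peak in ZT4 L had a fold of 4.70 and a rank of 71.7%. By both it stood above the night peaks of ZT12 L, ZT16 M and ZT20 L, and by rank also above ZT16 L (80.4%). That in ZT0 R lay below all 9 night peaks by rank (96.6%). By fold (3.89) it stood above ZT16 M (3.82) and ZT20 L (3.85). N13 (chr6:44884223-44884826) had peaks in 7 night and 1 day library, N14 (chr20:33627824-33628459) in 7 and 1, and N15 (chr13:24177409-24177850) in 6 and 0.

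N16 to N20 were listed at all 3 night times and had no day peak. N16, at chr7:10889167-10889623 (457 bp), had a peak in 8 of 9 night libraries, the most of any region with 0 day libraries. Its fragments were 5 and 10 in M and R of ZT12, 12, 7 and 7 at ZT16 and 8, 10 and 7 at ZT20. N17, at chr4:39295219-39295627 (409 bp), had 13, 10 and 10 fragments at ZT12, 11, 11 and 7 at ZT16 and 11 in L of ZT20. Its 7 summits lay within 76 bp, the narrowest spread of the 20 regions. N18 (chr19:27579808-27580207), N19 (chr9:36940680-36941311) and N20 (chr1:27013820-27014684) had peaks in 7 night libraries each, of 7 to 12, 5 to 12 and 8 to 14 fragments.

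**Figure D5:**
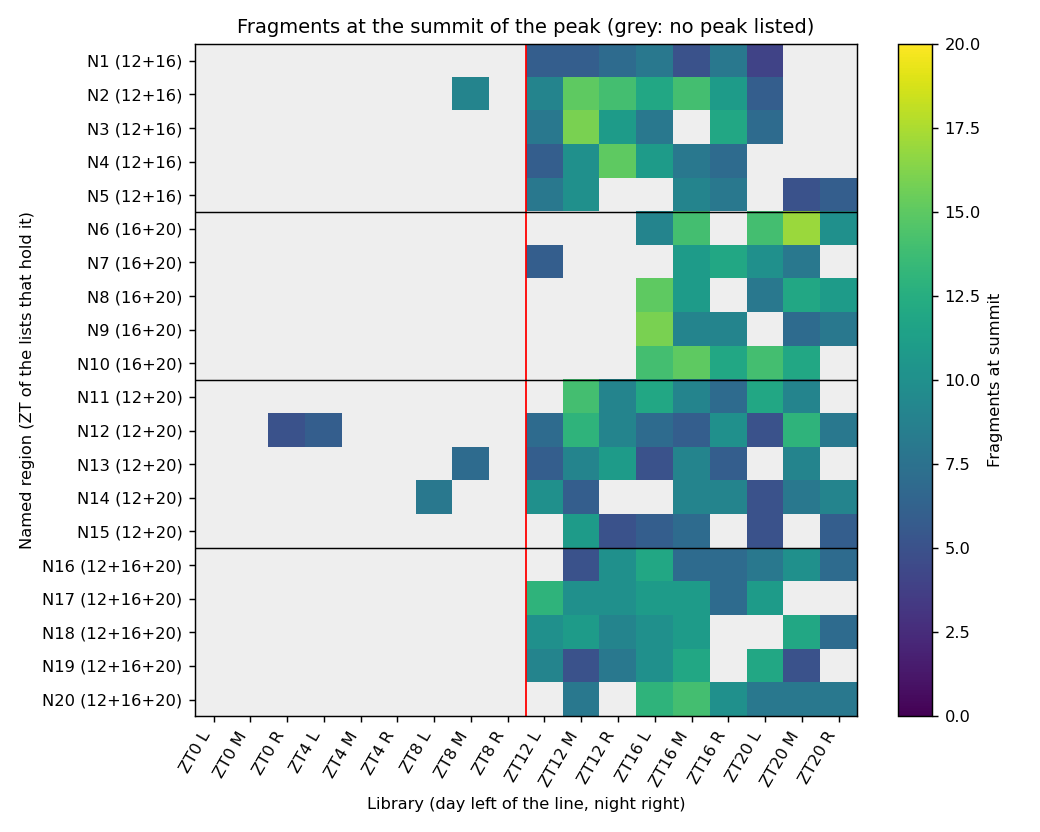
Fragments at the summit (colour) in each of the 18 libraries (columns, day left of the red line and night right of it) for the 20 named regions (rows, grouped by the lists that hold them, whose ZT numbers stand in parentheses). Grey cells have no listed peak. The 20 regions have 5 day peaks in all, in N2, N12, N13 and N14, and night peaks of 4 to 17 fragments, with filled cells at ZT16 in N11 to N15 although the ZT16 list left these out.

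A further 4 night-only regions had peaks in 6 or more day libraries, and were singled out after their values were seen. The region at chr12:1261524-1262955 (1432 bp), listed at ZT12 and ZT16, had a peak in all 18 libraries. Its day fragments were 13, 15 and 11 at ZT0, 9, 13 and 15 at ZT4 and 17, 18 and 12 at ZT8. Its night fragments were 10, 23 and 20 at ZT12, 23, 16 and 9 at ZT16 and 15, 12 and 15 at ZT20. The day range, 9 to 18, lay within the night range, 9 to 23. The regions at chr6:2966814-2967704 and chr7:8423280-8424079 had peaks in 9 night libraries and in 8 and 6 day libraries, and that at chr8:23076531-23077922 in 7 and 7. In all, 19 night-only regions had a peak in all 3 libraries of a day time whose list left them out. They were 6 of 1702 at ZT0, 10 at ZT4 and 7 at ZT8. Over all union regions unlisted at these times, 148 of 22342, 199 of 17293 and 162 of 17487 had such peaks. For such regions the merged lists and the library lists went against each other, which was not particular to night-only regions.

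The borders of the rule were not sharp in the libraries. Just outside it, 7372 regions were in 1 night list and 0 day lists, with a mean of 1.30 night and 0.180 day libraries. Just inside, the 1424 regions in 2 night lists had means of 2.76 and 0.426, and the 278 in all 3 had 4.34 and 0.777. A further 2847 regions were in 2 or 3 night lists and 1 day list, with means of 3.75 and 2.07, and the day list was ZT0 in 606 of them, ZT4 in 1123 and ZT8 in 1118.

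In width and place the night-only regions were near the rest of the genome's ACRs. Their median width was 384 bp (quartiles 297 and 499, range 158 to 2158), against 379 bp for all union regions, 379 bp for day-only regions and 563 bp for regions in all 6 lists. Of the night-only regions 72.7% lay in the outer 25% at either end of a chromosome, as did 73.3% of all union regions and 77.6% of day-only regions. Every one of the 20 chromosomes held some, from 60 on chromosome 16 to 115 on chromosome 13, and they were 4.12% (chromosome 8) to 5.78% (chromosome 7) of the union regions of a chromosome. With the lists as deposited, night-only regions outnumbered day-only regions on all 20, from 1.07 times on chromosome 12 to 2.59 times on chromosome 18.

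Few night-only regions lay close to another, though the share was above that of all union regions. Another lay within 1 kb of 32 (1.88%), whereas 1.18% of all union regions had a night-only region so near. A day-only region lay within 1 kb of 8 (0.470%), against 0.596% of all union regions. A region listed at all 6 times lay within 1 kb of 4.52% of them and of 3.43% of all union regions. In the order along the chromosomes, 103 pairs and 2 triples of night-only regions followed each other with no other union region between. No like count for other regions is given here. The triples spanned chr3:3859472-3876596 and chr12:33585690-33609158. These shares were not tested, since regions are not replicates.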

How the data were processed

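ATAC-seq peak lists of 18 libraries (6 time points, 3 replicates) and 6 merged lists were used. After trimming, the authors aligned reads with Bowtie2 to Wm82.a2.v1 keeping several alignments per pair, which lets repeated sequence pile up, and called peaks with MACS2 on whole fragments, per library after downsampling and on merged replicates. They kept peaks found in both and filtered them. The deposited library lists give start, end, summit offset, a score, −log10 p, −log10 q and a ratio of summit to background (fold). The deposited merged lists give start and end only (units of bp), with no height. Every sample column was used, and no 2 lists were identical.

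The paper counts these samplings a cycle later than the labels, whose ZT names are kept. Regions were joined when overlapping or touching, and a peak was counted with 1 bp or more of overlap. In MACS2 the fold has 1 added to the fragments and to the background, and p is a Poisson tail, so the pair of values fixes the whole number of fragments. This held within 0.001 of −log10 p for 99.71% to 99.91% of peaks with −log10 p under 50 in each library. The most frequent background was taken as background coverage, which rises with fragment number and length. Lists held 7668 to 21804 peaks. Ranks were compared by −log10 q within a list. The score column was not used, as the deposited score restates q.

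Library values were compared by two-sided exact permutation tests, adjusted by Benjamini-Hochberg over 3 measures at a threshold of 0.05. Fragment recovery, joining and overlap were tested on simulated data. Named regions were the 5 per list pattern with the most night minus day libraries with a peak, ties by median rank, then position. The regions, lists and tests were chosen with earlier results of these data known. Sequence, motifs and neighbouring genes were planned and not run, since no genome or annotation of Wm82.a2.v1 was used here. Alternatives were 50% overlap, equal peak numbers, −log10 q of at least 5, joining across 100 bp, a replicate block, time points as units and each library left out. Computation used Python 3.11.15, numpy 2.4.6, pandas 2.3.3, scipy 1.17.1 and matplotlib 3.10.9.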

Additional observations from a re-analysis of the deposited data

Results flagged for a closer look

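Over 14 groups of libraries checked for a sample far from the others, 2 had one, where chance marks about 1 group in 20. The background coverage of ZT12 R, 0.784 fragments per base, stood apart above the other 8 night libraries. The median rank of peaks in night-only regions was 84.7% in ZT0 L, which stood apart towards the weak end of the 9 day libraries. ZT0 L had the shortest list of the series, with 7668 peaks, and a peak in 45 of the night-only regions.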

How the results depend on the processing

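The count of 1702 night-only regions was 278 when all 3 night lists were asked for, and 986 and 436 when 2 of 3 libraries decided a listing, with all peaks and with an equal number. Joining across 100 bp left 1702. Leaving out a library when the rule was applied gave 1163 to 2021 regions. With the 1702 regions kept fixed, leaving out a library gave 1149 to 1235 with no day peak. A night library left out cannot change that count, and a day library left out can only raise it. Over the same fixed regions the night share of the mean call rate was 84.8% to 87.2%. With all libraries that share was 86.2%, against 92.5% at 50% overlap, 84.3% in lists of equal length and 91.4% at −log10 q of at least 5. Exact permutation p ranged without single libraries from 0.00107 to 0.00843 for background, 0.207 to 0.594 for covered length, 0.255 to 0.681 for peak number, 0.118 to 0.518 for rank, 0.0357 to 0.229 for fragments and 0.00714 to 0.0214 for width. With time points as units the background p was 0.1. The width p became 0.1 in lists of equal length, 0.157 in all 3 night lists and 0.0714 relative to all peaks. With the letters as a replicate block the exact permutation p was 0.00325 for background and 0.0278 for width, and no call changed. The letters did not pair the libraries: deviations from the time-point means correlated from −0.0497 to 0.0713 over 45 pairs, with 0 over 0.1. The window alternative for motifs was not run. A count of 4 or 5 fragments is the least a peak could hold, which limits every missing peak. The causes of these shifts were not tested.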
